A study of Mus musculus with 4 samples.

Results

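Capillary and arterial endothelial cells of the mouse gingiva were chosen by their own unique molecular identifiers (UMIs, tags that count captured mRNA molecules). A barcode was kept with at least 200 genes and at most 20% mitochondrial UMIs. A kept cell was a member if it held at least 3 UMIs of Pecam1, Cdh5 and Egfl7 together, fewer than 2 of the venous genes Selp, Sele and Ackr1, fewer than 3 of the lymphatic genes Prox1, Mmrn1 and Ccl21a, none of the leukocyte gene Ptprc and fewer than 5 of the keratin genes Krt5 and Krt14. Members with at least 2 UMIs of Sox17, Gja4, Gja5 and Hey1 together were called arterial and the others capillary. This left 881 members among 31150 kept cells of 33854 deposited barcodes, 293 of them arterial and 588 capillary.

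Gingiva was harvested after 14 days of a periodontitis model, in which the maxillary second molar was ligated with silk and given Porphyromonas gingivalis. The 4 libraries were Itga9-Lyz2-cKO PD (233 members), Itga9-Lyz2-cKO control (114), Itga9-Lyz2-cHet PD (477) and Itga9-Lyz2-cHet control (57), where PD marks the periodontitis tissue. The labels of all 4 name Itga9, an integrin subunit, and Lyz2, a gene of myeloid cells whose locus is widely used to drive Cre in those cells and not in endothelium. The labels do not give the number of mice behind a library, nor do they describe the control tissue further. There was 1 library per group. Levels are compared by size with intervals that cover counting error only, and no p-value stands beside any comparison of libraries. In sums over cells, fewer endothelial cells of a kind and a lower level per cell cannot be told apart.

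Endothelium is the inner lining of blood vessels. Arterial cells keep their identity through Notch signalling and the transcription factor Sox17 and are coupled by the connexins Gja4 and Gja5. Capillary cells exchange water, gases and fuel with the tissue, and many take up fatty acids with Gpihbp1, Lpl, Cd36 and Fabp4. Inflamed endothelium answers bacterial products and cytokines through NF-kB with chemokines and adhesion molecules and answers interferons with Cxcl9, Cxcl10 and guanylate-binding proteins. Growing vessels are led by tip cells with Esm1, Apln and Angpt2 and lay down new type IV collagen and laminin.

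The cells carried endothelial genes that the selection had not used. Flt1, a VEGF receptor, stood at 2059, 2215, 2473 and 3021 CPM (a gene's UMIs as a part of all UMIs summed over the same cells, on the usual CPM scale) in the members of the cKO PD, cKO control, cHet PD and cHet control libraries, and at 47.3, 31.0, 63.1 and 23.5 CPM in all other kept cells of the same libraries. Ptprb, the vascular endothelial phosphatase, stood at 1898, 2285, 1237 and 2693 CPM in members, and at 39.4, 35.6, 31.6 and 22.0 CPM in the other cells. Both genes were higher in members than in the other cells of every library. Of the genes that chose the cells, given as a description, Pecam1 lay between 1673 and 2275 CPM in members and between 18 and 69 CPM in other cells. Sox17 lay between 522 and 664 CPM in arterial members and between 64.5 and 121 CPM in capillary members. At the threshold, 33, 7, 58 and 2 members held exactly 3 endothelial UMIs in the cKO PD, cKO control, cHet PD and cHet control libraries, and 28, 11, 66 and 9 cells that met the other conditions held 2 and stayed outside. Exactly 2 arterial UMIs put 30, 8, 47 and 7 members in the arterial class, and 54, 18, 107 and 9 capillary members held 1.

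The libraries differed in depth, in mitochondrial UMIs and in RNA of other cell types. The median mitochondrial share of members was 5.21% in cKO PD, 9.50% in cKO control, 4.77% in cHet PD and 7.79% in cHet control. The limits on genes and mitochondrial UMIs kept 98.7%, 82.2%, 98.8% and 90.3% of the deposited barcodes in the same order. Members held a median of 1809 and 3733 UMIs in the cKO PD and cKO control libraries and 1963 and 3980 UMIs in the cHet PD and cHet control libraries. The deposited barcodes began at 500 UMIs in both PD libraries and at 1501 UMIs in both controls, so that 38.2% of the cKO PD members and 32.5% of the cHet PD members lay under the lowest control barcode. The summed level of 8 pericyte markers in members was 2002, 1940, 2074 and 5288 CPM in the cKO PD, cKO control, cHet PD and cHet control libraries, with 2 of the 8 at 0 in cKO PD. The 5 smooth muscle markers summed to 277, 645, 59.5 and 270 CPM with 1 or 2 at 0 in each library, the 8 keratinocyte markers to 855, 929, 1077 and 820 CPM with none at 0, and the 7 neutrophil markers to 1835, 132, 179 and 48.6 CPM with none at 0 in the PD libraries. The same neutrophil sum was 14365, 1749, 2430 and 1612 CPM in all other kept cells. Most of the pericyte sum of every library, control or PD, was 1 gene, Rgs5, at 1862 CPM in cKO PD and 1859 CPM in cHet PD. The other pericyte markers ran from 3.22 CPM (Higd1b) to 110 CPM (Abcc9) in cHet PD. Between 65 and 116 barcodes were shared by any 2 libraries, and 1 member barcode was shared, by cHet PD and cKO control.

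Capillary and arterial cells were a larger part of both PD libraries than of their controls. They were 3.53% of kept cells in cKO PD (233 of 6595, exact binomial interval 3.10 to 4.01%) and 1.49% in cKO control (114 of 7673, 1.23 to 1.78%), a ratio of 2.38 with a 95% counting interval of 1.89 to 3.0. In the cHet pair they were 5.32% in PD (477 of 8967, 4.86 to 5.80%) and 0.720% in control (57 of 7915, 0.546 to 0.932%), a ratio of 7.39 (5.60 to 9.90). Venous endothelial cells, which met the same conditions but held 2 or more UMIs of Selp, Sele and Ackr1, were 1.43% and 0.795% of kept cells in the cKO PD and cKO control libraries and 1.12% and 0.354% in the cHet PD and cHet control libraries. When each cell was thinned to 1000 UMIs before selection, members were 2.79% and 1.30% in the cKO PD and cKO control libraries and 5.48% and 0.644% in the cHet PD and cHet control libraries, with 1030 and 2201 shallower cells left out of cKO PD and cHet PD and none out of the controls. The share in cKO PD was 0.664 times that in cHet PD (0.565 to 0.778), and 0.508 times after thinning, while that in cKO control was 2.06 times that in cHet control (1.49 to 2.89). The keratin limit fell unequally on cells with at least 3 endothelial UMIs. It removed 26 of 367 in cKO PD and 79 of 266 in cKO control. In the cHet pair it removed 58 of 681 in PD and 49 of 151 in control. The part of this limit in the share ratios was not tested. A share of cells in a dissociated tissue depends on every other cell type in the suspension.

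The arterial share of members was 34.8% in cKO PD and 47.4% in cKO control, a ratio of 0.734 (0.514 to 1.06), and 27.0% in cHet PD and 50.9% in cHet control, a ratio of 0.532 (0.353 to 0.825). After thinning, the arterial share was 14.8% (23 of 155) in cKO PD and 16.0% (16 of 100) in cKO control. It was 10.5% (39 of 371) in cHet PD and 9.80% (5 of 51) in cHet control, a ratio of 1.07 (0.422 to 3.49). These counts are small, and no order within either pair is read from them.

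**Figure D1:**
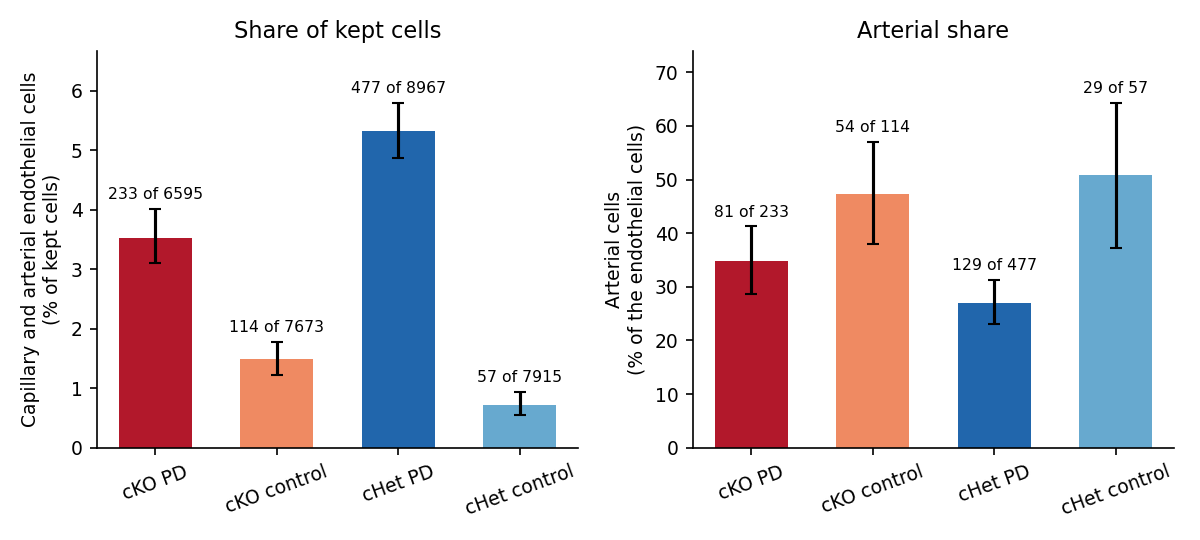
Bars show the capillary and arterial endothelial cells as a percentage of kept cells (left) and the arterial cells as a percentage of these endothelial cells (right) in the 4 libraries, with exact 95% binomial intervals and the cell counts above. Both PD libraries stood above their controls in the left panel, at 3.53% against 1.49% and at 5.32% against 0.720%.

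Arterial cells carried the other genes of arteries and of the arterial wall. Because the classes were drawn from UMIs of the same cells, and arterial members were deeper (a median of 2308, 5946.5, 2745 and 6565 UMIs in the cKO PD, cKO control, cHet PD and cHet control libraries, against 1506, 2883, 1717.5 and 2884.5 in capillary members), the differences describe what went with Sox17, Gja4, Gja5 and Hey1, and nothing is read from their number. In edgeR's quasi-likelihood test with the library as a block and the selection genes left out, 63 genes were higher in arterial members (1.31% of 4819 genes tested) and 49 lower (1.02%) at a Benjamini-Hochberg adjusted p under 0.05. Fbln5, an elastic fibre protein, was at 871, 493, 308 and 388 CPM in arterial members of the cKO PD, cKO control, cHet PD and cHet control libraries, and at 178, 87.5, 66.7 and 38.0 CPM in capillary members (log2 fold change 2.46, SE 0.20). Sema3g, a semaphorin of arterial endothelium, was at 672, 725, 371 and 339 CPM in arterial members and at 210, 101, 121 and 38.0 CPM in capillary members (2.13, SE 0.24). Bmx, a tyrosine kinase of arterial endothelium, had a log2 fold change of 1.95 (SE 0.29) and Kcnj2, an inward-rectifier potassium channel, one of 2.12 (SE 0.39). In all 4 libraries each of these genes was higher in the arterial cells.

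Of 20 tested genes of an arterial list that the selection had not used, 13 were higher and none lower, among them Jag1, Vegfc, Efnb2, Dll4, Edn1, Eln and Clu. Of 18 capillary genes only the fatty acid carrier Fabp5 and the water channel Aqp1 passed the test, both lower in arterial cells. Of 27 tested interferon genes none was called in either direction. Markers of other cells lay among the calls. The smooth muscle genes Acta2 (3.01, SE 0.51) and Myh11 (2.11, SE 0.46) were higher in arterial members, and smooth muscle markers summed to 484, 984, 78.3 and 299 CPM in arterial members and 103, 46.1, 45.8 and 209 CPM in capillary members of the cKO PD, cKO control, cHet PD and cHet control libraries. Pericyte markers summed to 2796, 2771, 2248 and 7331 CPM in arterial members and 1340, 474, 1947 and 932 CPM in capillary members. In the PD libraries most of this was Rgs5, at 2642 CPM in arterial and 1212 CPM in capillary members of cKO PD. In cHet PD it was at 2023 CPM in arterial and 1740 CPM in capillary members. The 12 genes with the most negative fold changes that were called were Calm4, Serpinb3a, Calml3, Ltf, Krtdap, Ly6d, Pkp1, Krt10, Mt4, Serpinb5, Krt1 and Ehf, most of them keratinocyte genes, and the 8 keratinocyte markers summed to 368, 475, 535 and 584 CPM in arterial members and 1262, 1732, 1471 and 1322 CPM in capillary members. Without cells holding at least 5 UMIs of fibroblast, pericyte and smooth muscle genes, 66 genes were higher and 43 lower among 3925 tested. The part of these other cell types in the class difference was not tested beyond this count. The counts were 24 higher and 24 lower without cKO PD, 32 and 28 without cKO control, 33 and 41 without cHet control, and 10 and 2 among 750 genes tested after thinning.

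Set against venous cells of the same libraries, capillary and arterial cells carried fatty acid and exchange genes and less of the genes of venules. The venous cells were split off by Selp, Sele and Ackr1 and had a median of 2701, 4974, 4757.5 and 5446 UMIs in the cKO PD, cKO control, cHet PD and cHet control libraries, so these values too are a description. In the same test 269 genes were higher (4.28% of 6288) and 214 lower (3.4%), and nothing is read from these numbers. Timp4, an inhibitor of matrix metalloproteinases, was at 68.3, 335, 143 and 486 CPM in members and at 0, 4.86, 1.73 and 0 CPM in venous cells of the cKO PD, cKO control, cHet PD and cHet control libraries. Lpl, lipoprotein lipase, was at 852, 2145, 1575 and 3512 CPM in members and at 8.26, 12.1, 84.9 and 49.0 CPM in venous cells (log2 fold change 5.64, SE 0.40). Cd36, a fatty acid transporter, had a log2 fold change of 4.27 (SE 0.48), Aqp7, a glycerol channel, one of 4.67 (SE 0.56), and Car4, the membrane carbonic anhydrase of capillaries, one of 3.34 (SE 0.49). Of 11 tested fatty acid genes 6 were higher and none lower. Of 19 capillary genes 12 were higher and 1, Plvap, the protein of fenestral diaphragms, lower (-1.33, SE 0.16). The fatty acid and capillary lists overlap, and Lpl, Gpihbp1, Cd36, Fabp4 and Meox2 were called higher in both. Of 20 arterial genes 10 were higher.

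Of 13 venous genes that the selection had not used, 11 were lower in members, with Lrg1 at -3.05 (SE 0.25), the prostaglandin transporter Slco2a1 at -2.79 (SE 0.29) and the leukocyte ligand Icam1 at -1.76 (SE 0.18). Nt5e, the ectonucleotidase CD73, was lower by a log2 fold change of -2.60 (SE 0.21), and Lbp, the lipopolysaccharide-binding protein, by -3.87 (SE 0.55). Interferon genes leaned the other way: 9 of 30 tested were higher in members and none lower, including Rsad2 at 333, 94.9, 1608 and 115 CPM in members and 33.0, 17.0, 385 and 19.6 CPM in venous cells (2.46, SE 0.22). Ifit1, also called, was lower in members of cKO control (51.6 CPM, against 68.0 CPM in venous cells) and higher in the other 3 libraries. The counts were 172 higher and 122 lower without cKO PD, 153 and 122 without cHet control, 181 and 142 without cKO control, 156 and 139 in DESeq2, and 42 and 28 among 1066 genes after thinning.

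**Figure D2:**
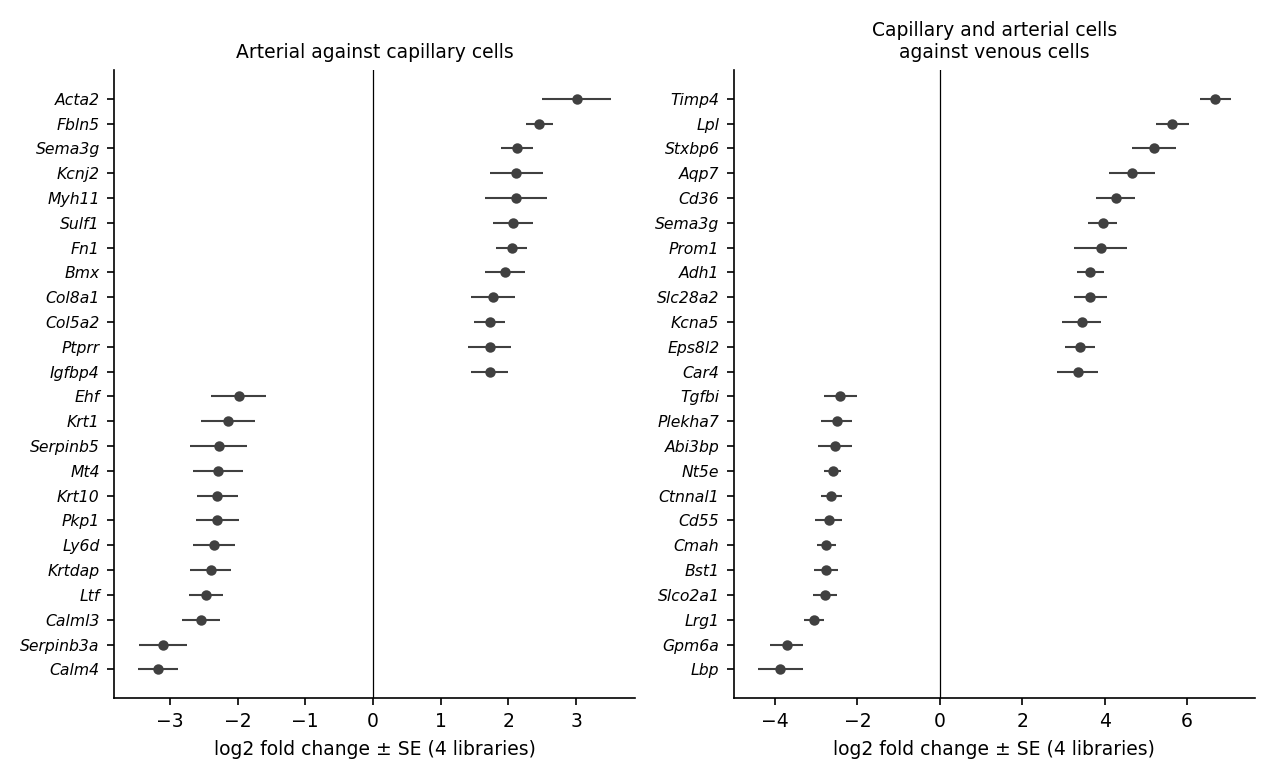
Points are log2 fold changes with their standard errors over 4 libraries for the 12 called genes with the largest changes in each direction, arterial over capillary cells on the left and capillary and arterial cells over venous cells on the right. The left panel runs from Acta2 at 3.01 to Calm4 at -3.17, and the right panel from Timp4 at 6.69 to Lbp at -3.87.

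Between PD and control libraries the members differed in many genes. A gene was called by size when it lay at least 2-fold apart with 10 CPM added to both levels, held at least 50 UMIs in 1 of the 2 libraries, and had a 95% counting interval of the ratio that left out 1. In cKO, 248 genes were called higher in PD than in control (9.24% of 2685 genes with enough UMIs) and 236 lower (8.79%). In cHet, 506 were called higher (11.9% of 4235) and 217 lower (5.12%). Of 2590 genes that could be called in both genotypes, 142 were higher in both PD libraries (5.48%) and 121 lower in both (4.67%), and these pairs share no library. H2-Q6 was the single gene called in opposite directions. Part of these genes differed in the same way in the rest of the tissue. Of the 142, 52 were also at least 2-fold apart in all other kept cells of both genotypes, as were 46 of the 121. In neither genotype was this so for 54 and 59. The share of all 2590 genes that were 2-fold apart in the other cells was not counted. Whether these overlaps are large is therefore not read from them. With cells thinned to 1000 UMIs 53 genes were called higher and 17 lower in both, of 548 that could then be called. With the control UMI minimum in all libraries they were 144 and 122 of 2384.

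The genes highest in both PD libraries were Adamts4, Tnfaip3, Inhbb, Cxcr4, Cxcl10, Noct, Sox4, Il6, Akap12 and Hmox1. Adamts4, a protease that cuts proteoglycans such as versican, was at 335 and 15.0 CPM in the cKO PD and cKO control members (22.3-fold, 11.5 to 49.5) and at 708 and 18.2 CPM in the cHet PD and cHet control members (38.8-fold, 17.8 to 106). Tnfaip3, which encodes the NF-kB inhibitor A20, was at 410 and 43.3 CPM in the cKO pair (9.46-fold, 6.30 to 14.8) and at 502 and 48.6 CPM in the cHet pair (10.3-fold, 6.31 to 18.2). Both PD libraries stood well above both controls for these 2 genes, and the other kept cells changed less (log2 fold of 2.25 and 1.90 for Adamts4 and of 0.94 and 2.42 for Tnfaip3 in the cKO and cHet pairs). Inhbb, a subunit of activin B and inhibin B, was at 140 and 9.99 CPM in cKO PD and cKO control and at 208 and 12.1 CPM in cHet PD and cHet control. Cxcr4, the receptor of Cxcl12, was at 113 and 6.66 CPM in the cKO pair and 292 and 9.11 CPM in the cHet pair, with log2 folds of 2.88 and 3.98 in members and of 3.36 and 3.58 in the other cells. The transcription factor Sox4 was at 335 and 50.0 CPM in the cKO pair and at 379 and 54.6 CPM in the cHet pair, with a log2 fold of 0.24 and 0.02 in the other cells. Noct, a nocturnin phosphatase, Akap12, a scaffold of protein kinase A, and Hmox1, heme oxygenase, had log2 folds between 2.19 and 2.85.

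The genes lowest in both PD libraries were headed by the lipid genes Pltp and Thrsp. Pltp, which moves phospholipid between lipoproteins, was at 27.3 and 296 CPM in cKO PD and cKO control (10.9-fold lower in PD, 6.50 to 19.4) and at 30.6 and 313 CPM in cHet PD and cHet control (10.2-fold lower in PD, 6.99 to 15.3). Thrsp, a regulator of fatty acid synthesis, was at 11.9 and 147 CPM in the cKO pair and at 20.9 and 225 CPM in the cHet pair. The level of Thrsp in all other kept cells was 1.02 CPM or less. Those cells held many more UMIs than the members, so the share of Thrsp UMIs that lay in members is not read from these levels. The glucocorticoid-responsive transcription factor Zbtb16 was at 18.8 and 158 CPM in cKO PD and cKO control and at 20.1 and 240 CPM in cHet PD and cHet control. Itm2a, a membrane protein, was at 35.8 and 208 CPM in the cKO pair and at 15.3 and 200 CPM in the cHet pair, and Bcl2l1, which opposes apoptosis, at 37.6 and 207 CPM and at 24.1 and 197 CPM. For both genes the other cells showed log2 folds between -0.44 and 0.27. For Ppp1ca, the catalytic subunit of a protein phosphatase, the fold in members (log2 of -2.47 and -2.40 in the cKO and cHet pairs) equalled that in the other cells (-2.50 and -2.31). Apoe, Qsox1, Ptp4a3 and Crip1 were the other named genes, with log2 folds between -2.03 and -3.58.

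**Figure D3:**
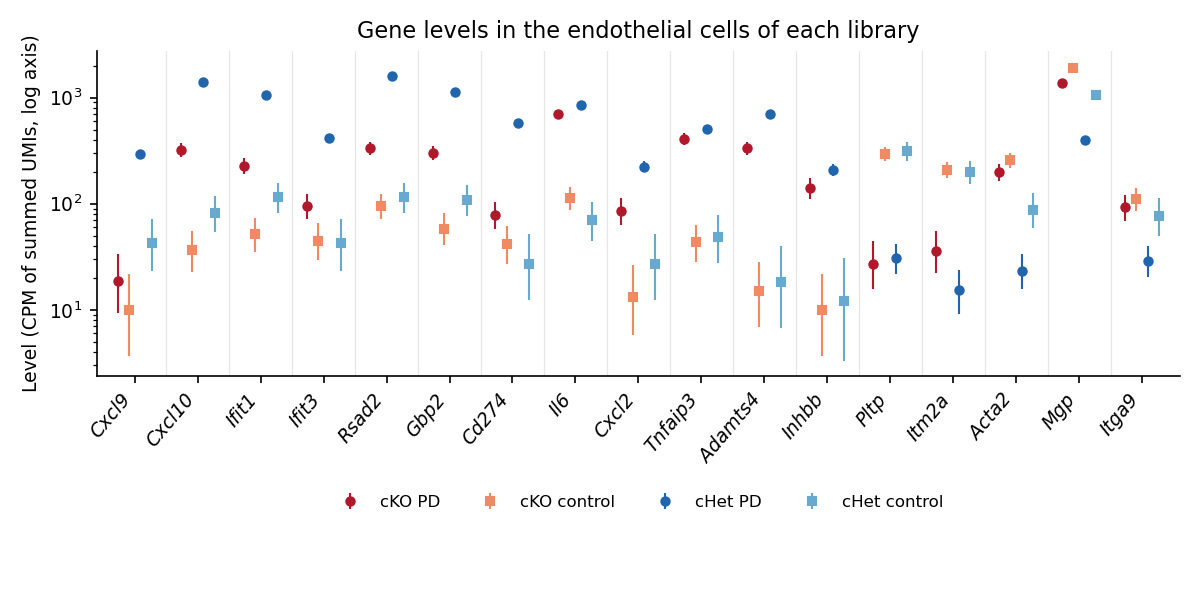
Points are levels of 17 genes in the endothelial cells of each library, in CPM of summed UMIs on a log axis, with exact 95% Poisson intervals. Adamts4, Tnfaip3 and Il6 lay above the controls in both PD libraries and Pltp and Itm2a below them, whereas Cxcl9, Cd274 and the interferon genes stood highest in cHet PD.

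Chemokines and cytokines were the list with the largest median difference in both genotypes among the 21 lists. A list gene counted as measured with at least 20 UMIs in 1 library of a pair and as higher or lower when at least 1.5-fold apart. By that rule 6 of 10 measured genes were higher in cKO PD than in cKO control and 1 lower, with a median log2 fold of 1.62, and 11 of 13 were higher in cHet PD than in cHet control and 1 lower, with a median of 1.63. Among all measured genes 19.3% were higher and 19.1% lower in the cKO pair with a median of 0.03, and 23.6% were higher and 14.4% lower in the cHet pair with a median of 0.10. Il6 was at 695 and 113 CPM in cKO PD and cKO control and at 854 and 69.8 CPM in cHet PD and cHet control. Cxcl10, a ligand of the T cell receptor Cxcr3, was at 323 and 36.6 CPM in the cKO pair and at 1388 and 82.0 CPM in the cHet pair. Cxcl2, which draws neutrophils through Cxcr2, was at 85.3 and 13.3 CPM in the cKO pair and at 224 and 27.3 CPM in the cHet pair. All 3 genes were higher in both PD libraries than in both controls, and 1 cell held 45.6% of the Il6 UMIs in cKO control. In all other kept cells the list's median was 1.00 in the cKO pair and 1.43 in the cHet pair. The typical cell differed less than the sums in cHet, with a median of 2.98 list UMIs per 1000 in cHet PD and 2.67 in cHet control, and of 2.35 in cKO PD and 1.12 in cKO control. Of NF-kB components and targets, 6 of 12 were higher in the cKO pair and 10 of 15 in the cHet pair with none lower in either, with medians of 0.71 and 1.00 in members and of 0.78 and 0.90 in the other cells. Nfkb1 itself was at 319 and 99.9 CPM in cKO PD and cKO control and at 335 and 91.1 CPM in cHet PD and cHet control.

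The promoters of Cxcl10, Il6 and Cxcl2 are shown because these 3 genes stood highest in that list by the smaller of their 2 folds over the genotypes. Those of Gbp2 and Ifit1, the first 2 interferon genes by the same measure, were chosen after their values were seen. The windows of 300 bases around the RefSeq start site (GRCm38.p6, the build of the deposited data's mm10) were searched on both strands for ISRE (GAAA, any 2 bases, GAAA), GAS (TTC, any 3 bases, GAA), AP-1 (TGANTCA), CRE (TGACG followed by TCA), hypoxia (ACGTG), KLF (CACCC) and NF-kB motifs. The NF-kB motif was added to the search after the data were seen. Capitals mark ISRE, GAS, AP-1 and NF-kB matches, and the KLF matches are left in lower case.
Cxcl10, minus strand of chr5:92348840-92349139: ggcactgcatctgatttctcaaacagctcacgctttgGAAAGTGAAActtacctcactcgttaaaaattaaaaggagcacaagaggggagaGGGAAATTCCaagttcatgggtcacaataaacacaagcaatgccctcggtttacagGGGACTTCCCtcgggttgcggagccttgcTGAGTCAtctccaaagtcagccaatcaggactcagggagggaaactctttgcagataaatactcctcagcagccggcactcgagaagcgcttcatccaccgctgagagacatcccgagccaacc
Il6, plus strand of chr5:30012864-30013163: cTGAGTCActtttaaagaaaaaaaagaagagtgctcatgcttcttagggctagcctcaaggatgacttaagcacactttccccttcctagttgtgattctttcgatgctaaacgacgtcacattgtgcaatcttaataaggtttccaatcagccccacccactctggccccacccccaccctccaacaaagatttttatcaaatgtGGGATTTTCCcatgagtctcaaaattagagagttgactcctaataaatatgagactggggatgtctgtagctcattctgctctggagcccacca
Cxcl2, plus strand of chr5:90903649-90903948: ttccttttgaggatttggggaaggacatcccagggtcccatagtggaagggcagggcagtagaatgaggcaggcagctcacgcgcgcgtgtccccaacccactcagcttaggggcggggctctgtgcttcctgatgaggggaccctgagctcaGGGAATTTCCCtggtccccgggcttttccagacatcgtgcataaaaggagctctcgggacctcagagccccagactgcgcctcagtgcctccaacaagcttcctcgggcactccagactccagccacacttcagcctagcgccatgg
Gbp2, plus strand of chr3:142620413-142620712: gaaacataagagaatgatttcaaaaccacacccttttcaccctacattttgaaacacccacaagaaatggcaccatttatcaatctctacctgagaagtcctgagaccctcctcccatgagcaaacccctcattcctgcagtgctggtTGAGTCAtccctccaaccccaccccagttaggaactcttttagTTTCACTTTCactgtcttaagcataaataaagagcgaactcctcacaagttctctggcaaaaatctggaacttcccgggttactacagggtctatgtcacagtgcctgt
Ifit1, plus strand of chr19:34640639-34640938: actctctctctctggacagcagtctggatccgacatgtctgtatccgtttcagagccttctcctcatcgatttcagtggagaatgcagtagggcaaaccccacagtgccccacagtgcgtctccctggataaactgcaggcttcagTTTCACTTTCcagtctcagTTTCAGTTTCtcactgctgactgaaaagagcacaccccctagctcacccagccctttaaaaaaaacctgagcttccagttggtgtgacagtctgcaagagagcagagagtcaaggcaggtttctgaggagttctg
The Cxcl10 window held 1 ISRE from position -213 to -204 relative to the start site, 1 AP-1 match and 2 NF-kB matches. Il6 held 1 AP-1 match, 3 KLF matches and 1 NF-kB match from -44 to -35, and Cxcl2 held 2 NF-kB matches that overlap each other from -97 to -87. Gbp2 held 1 ISRE from -59 to -50, 1 AP-1 match and 4 KLF matches, and Ifit1 held 2 ISRE, from -104 to -95 and from -85 to -76, and 2 KLF matches. The other motifs had no match in these 5 windows. Ifit2, the next interferon gene by the same measure, has 2 listed windows, and neither held an ISRE. Over 32851 promoter windows of the same length, 3.44% held an ISRE, 8.3% a GAS, 7.81% an AP-1, 4.51% an NF-kB, 1.79% a CRE, 19.6% a hypoxia and 57.5% a KLF match.

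Interferon response genes had the largest median difference between the 2 PD libraries among the 21 lists. In cHet, 28 of 33 measured genes were higher in PD than in control and 2 lower, with a median log2 fold of 1.48, while in cKO 14 of 28 were higher and 3 lower, with a median of 0.61. Set against each other, 0 of 33 were higher and 30 lower in cKO PD than in cHet PD, with a median of -1.17, where 5.81% of 6764 measured genes were higher and 10.9% lower with a median of -0.06. In all other kept cells the same genes had a median of -0.55 between these 2 libraries, 0.95 in the cHet pair and 0.29 in the cKO pair. Rsad2, the antiviral enzyme viperin, was at 333 CPM in cKO PD and 1608 CPM in cHet PD (4.83-fold lower in cKO PD, 4.17 to 5.63), with 94.9 and 115 CPM in the cKO and cHet controls. Ifit1, which binds viral RNA, was at 229 and 1058 CPM in cKO PD and cHet PD, with 51.6 and 115 CPM in the cKO and cHet controls. Gbp2, an interferon-induced guanylate-binding GTPase whose promoter is printed above, was at 299 and 1135 CPM in cKO PD and cHet PD, with 58.3 and 109 CPM in the cKO and cHet controls. Each of the 3 genes was highest in cHet PD, next in cKO PD and lower in both controls. Ifi27l2a went the other way in the PD pairs, with a log2 fold of -1.62 in cKO and -0.88 in cHet.

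The interferon difference was present across the cells and not confined to a few. Each cell's interferon UMIs per 1000 of its UMIs had a median of 4.29 in cKO PD (quartiles 1.99 and 9.86), 2.85 in cKO control (1.57 and 4.88), 13.0 in cHet PD (7.13 and 21.8) and 3.82 in cHet control (2.80 and 6.71). The upper quartile of cKO PD thus lay under the median of cHet PD. In cKO PD the median was 3.77 in arterial and 5.50 in capillary cells, and in cHet PD 11.4 in arterial and 13.6 in capillary cells. Taken by class, the cKO pair differed by a median log2 fold of 0.16 in arterial cells (5 of 24 genes higher, 4 lower) and 1.02 in capillary cells (22 of 24 higher, 1 lower), while the cHet pair stood at 1.51 and 1.77 and cKO PD against cHet PD at -1.53 and -1.20 in arterial and capillary cells. Among all measured genes of the cKO pair, 767 of 3632 were higher and 817 lower in arterial cells. In capillary cells 910 of 3336 were higher and 631 lower. The 5 of 24 higher in arterial cells thus lay near the share of all genes. The difference between the classes was not tested.

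**Figure D4:**
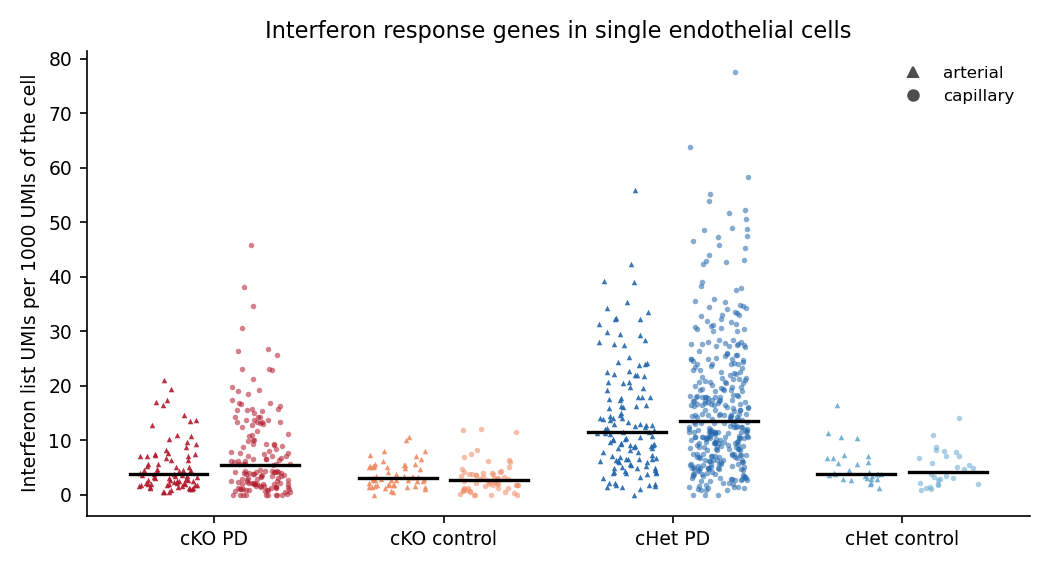
Each point is 1 endothelial cell and shows the UMIs of 35 interferon response genes per 1000 UMIs of that cell, split into arterial (triangles) and capillary (circles) cells of the 4 libraries, with black bars at the medians. Medians lay at 11.4 and 13.6 in cHet PD and at 3.77 and 5.50 in cKO PD.

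Ligands and antigen presentation genes that interferon induces were lower in cKO PD too. Between the PD libraries 56 genes were called higher in cKO PD (1.32% of 4245) and 135 lower (3.18%). Cxcl9 was at 18.8 CPM in cKO PD and 291 CPM in cHet PD (15.5-fold lower in cKO PD, 8.56 to 31.3), and at 9.99 and 42.5 CPM in the cKO and cHet controls, where 1 cell held most of its few UMIs. Cd274, the checkpoint ligand PD-L1, was at 78.5 CPM in cKO PD and 573 CPM in cHet PD (7.29-fold lower in cKO PD, 5.41 to 10.1), and at 41.6 and 27.3 CPM in the controls. Both were high in cHet PD alone. Of MHC presentation genes 0 of 14 were higher and 11 lower in cKO PD than in cHet PD (median -0.94, and -0.07 in the other cells), 9 of 14 were higher in cHet PD than in cHet control (median 0.79), and 0 of 11 were higher and 2 lower in cKO PD than in cKO control (median -0.23). Tap1, which pumps peptides toward class I molecules, was at 39.3 and 48.3 CPM in cKO PD and cKO control and at 126 and 63.8 CPM in cHet PD and cHet control. H2-Q6, H2-Q4 and H2-Q7 also differed, but these class I genes are close copies whose reads may be split by the counting. Pfkfb3, which drives glycolysis, was at 172 CPM in cKO PD and 592 CPM in cHet PD, while of 21 glycolysis and hypoxia genes 3 were higher and 2 lower in cKO PD (median 0.23). Of 13 chemokine and cytokine genes 1 was higher and 9 lower in cKO PD (median -1.16, and -0.32 in the other cells), and of 15 NF-kB genes 1 was higher and 7 lower (median -0.42).

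Several arterial genes and the smooth muscle gene Acta2 were higher in cKO PD than in cHet PD. Of 20 arterial genes 10 were higher and none lower, with a median of 0.57 (-0.05 in the other cells). The controls leaned the same way, with 8 of 19 higher and 1 lower in cKO control than in cHet control and a median of 0.32. Fbln5 was at 493 CPM in cKO PD and 168 CPM in cHet PD (2.94-fold, 2.45 to 3.52), with 346 and 276 CPM in the cKO and cHet controls. Edn1, the vasoconstrictor endothelin-1, was at 737 CPM in cKO PD and 274 CPM in cHet PD, with 615 and 370 CPM in the controls, and Clu, clusterin, was at 203 and 70.0 CPM, with 613 and 328 CPM in the controls. For Fbln5 and Edn1 it was cHet PD that stood lowest of the 4 libraries. Mgp, an inhibitor of calcification, was at 1383 CPM in cKO PD and 396 CPM in cHet PD and Acta2 at 198 and 23.3 CPM, with 23.8% and 31.9% of their cKO PD UMIs in 1 cell each. In the controls too both were higher in cKO, with Mgp at 1892 CPM in cKO control and 1060 CPM in cHet control and Acta2 at 258 and 88.0 CPM. S100a4, Col8a1, Slco2a1, Olfml2a, Ank3, Tgfb2, Htra1 and Npnt completed the named genes, with log2 folds between 1.54 and 2.63. The arterial share of members was 34.8% in cKO PD and 27.0% in cHet PD, a ratio of 1.29 (0.961 to 1.71). Its counting interval held 1. Smooth muscle markers summed to 277 CPM in cKO PD and 59.5 CPM in cHet PD. The part of the arterial share and of smooth muscle RNA in these gene differences was not tested. Within arterial cells alone 13 of 20 arterial genes were higher and none lower, with a median of 0.79, and within capillary cells 7 of 19, with a median of 0.39. Among all measured genes 323 of 4425 were higher and 798 lower in arterial cells. In capillary cells 400 of 5282 were higher and 750 lower.

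**Figure D5:**
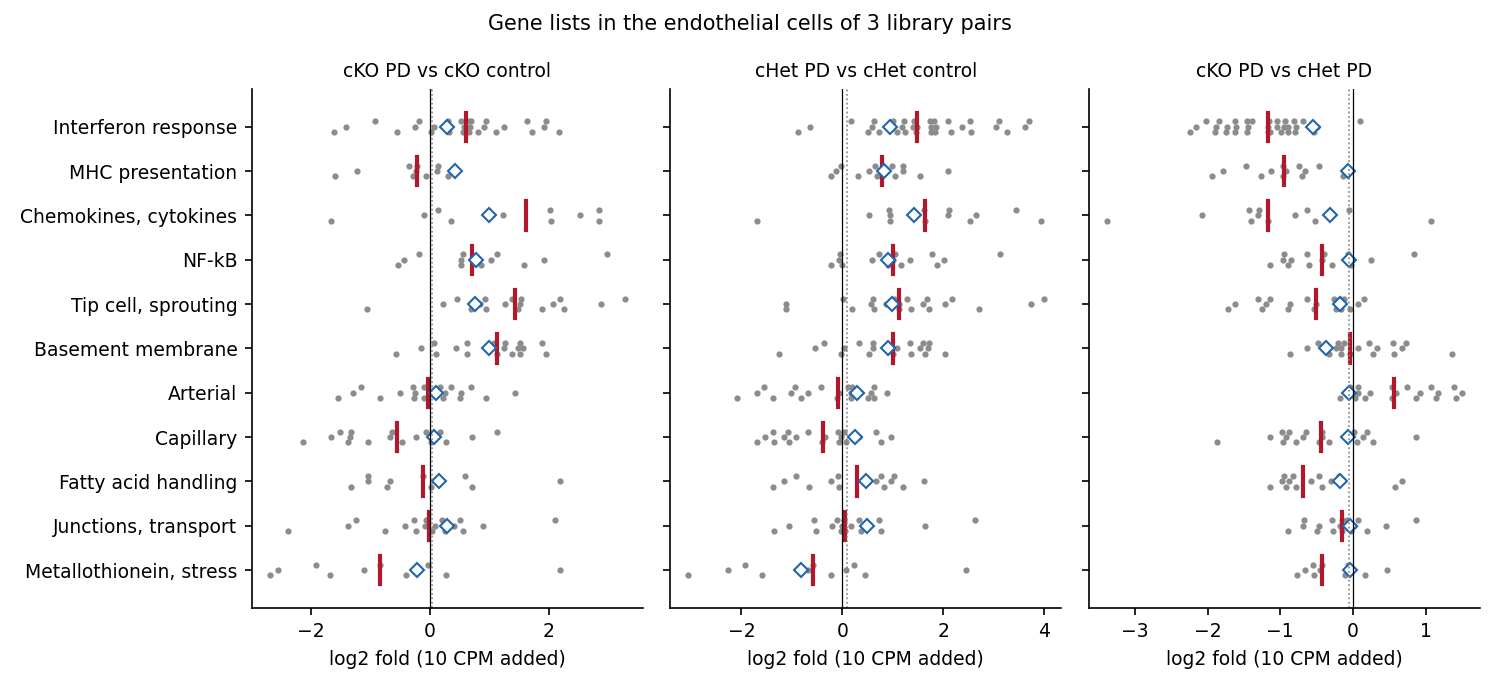
Grey points are log2 folds (10 CPM added) of the measured genes of 11 lists in the endothelial cells for 3 library pairs, red bars their medians, white diamonds the medians of the same genes in all other kept cells, and the dotted line the median of all measured genes. The interferon median stood at 0.61, 1.48 and -1.17 in the 3 panels, from left to right.

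Most measured sprouting and basement membrane genes were higher in both PD libraries than in their controls. The lists overlap, since Col4a1, Col4a2, Lamb1, Nid1 and Nid2 stand in both. Of tip cell genes 15 of 18 were higher and 1 lower in the cKO pair with a median of 1.43, and 16 of 21 were higher and 2 lower in the cHet pair with a median of 1.11, where the other cells stood at 0.76 and 0.98. Esm1, a tip cell proteoglycan, was at 116 and 20.0 CPM in cKO PD and cKO control and at 173 and 18.2 CPM in cHet PD and cHet control. Angpt2, an antagonist of the Tie2 receptor, was at 42.7 and 8.33 CPM in the cKO pair and at 164 and 3.04 CPM in the cHet pair, and Mcam, an adhesion molecule, at 579 and 113 CPM and at 548 and 164 CPM. Esm1 and Angpt2 came from few cells and Mcam from many: 22 of 477 cHet PD members held at least 3 UMIs of Esm1, Apln and Angpt2 together and carried 91.0% of those UMIs, 14 of them arterial, and 13 of 233 did in cKO PD with 81.9%. In the controls 2 of 114 cKO and 2 of 57 cHet members reached this level, at a median of 3733 and 3980 UMIs a cell against 1809 and 1963 in PD. As shares of members these were 5.58% in cKO PD and 1.75% in cKO control, and 4.61% in cHet PD and 3.51% in cHet control. By class, 14 of 129 arterial and 8 of 348 capillary cells reached this level in cHet PD. In cKO PD 7 of 81 arterial and 6 of 152 capillary cells did. Arterial cells were deeper, at a median of 2745 against 1717.5 UMIs in cHet PD and 2308 against 1506 in cKO PD.

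Of basement membrane genes 14 of 19 were higher and none lower in the cKO pair with a median of 1.12, and 12 of 19 were higher and 1 lower in the cHet pair with a median of 1.01. The other cells had medians of 1.00 and 0.91. Col4a1, a chain of type IV collagen, was at 2511 and 676 CPM in cKO PD and cKO control (3.71-fold, 3.32 to 4.15) and at 2953 and 971 CPM in cHet PD and cHet control (3.04-fold, 2.71 to 3.42). Lamb1, a laminin chain, was at 210 and 66.6 CPM in the cKO pair and at 392 and 88.0 CPM in the cHet pair, and Col15a1 at 785 and 197 CPM and at 1100 and 349 CPM. In single cells the 2 genotypes differed: the list's UMIs per 1000 had a median of 20.9 in cKO PD and 11.5 in cKO control, but of 12.9 in cHet PD and 13.4 in cHet control, where the top 10% of PD cells held 53.0% of the list's UMIs. The cHet difference in summed levels was also smaller in capillary cells (median 0.27) than in arterial cells (1.58). Plau and Plaur, which act in plasmin formation at the cell surface, were at 131 and 210 CPM in cKO PD, 23.3 and 38.3 CPM in cKO control, 173 and 473 CPM in cHet PD and 30.4 and 97.1 CPM in cHet control.

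More capillary genes were lower than higher in PD. Of 18 measured in the cKO pair 2 were higher and 9 lower (median -0.55), and of 20 in the cHet pair 3 were higher and 9 lower (median -0.38), with 0.07 and 0.25 in the other cells. Timp4 was at 68.3 and 335 CPM in cKO PD and cKO control (4.90-fold lower in PD, 3.48 to 7.07) and at 143 and 486 CPM in cHet PD and cHet control (3.39-fold lower in PD, 2.72 to 4.23). Cd300lg, a lectin-like receptor of capillaries, was at 188 and 490 CPM in the cKO pair and at 240 and 707 CPM in the cHet pair, and Gpihbp1, which carries lipoprotein lipase to the capillary lumen, at 99.0 and 213 CPM and at 136 and 370 CPM. These 3 genes were lower in both PD libraries than in either control. Over single cells the list did not keep this order in cKO: its UMIs per 1000 had a median of 15.9 in cKO PD and 12.2 in cKO control, and of 20.8 in cHet PD and 25.3 in cHet control. Cd36 was not lower in PD in either genotype, at 1162 and 1148 CPM in the cKO pair and at 2574 and 1624 CPM in the cHet pair. Fabp4 was lower in cKO PD than in cKO control, at 1908 and 3060 CPM (log2 fold -0.68), and stood at 3780 and 3953 CPM in cHet PD and cHet control (-0.06). Between the PD libraries, 1 of 20 capillary genes was higher and 9 lower in cKO PD (median -0.45), with Car4 at 25.6 CPM in cKO PD and 121 CPM in cHet PD (4.71-fold lower in cKO PD, 2.77 to 8.63). Of 14 fatty acid genes 1 was higher and 7 lower in that comparison (median -0.68), and of 21 tip cell genes 0 and 9 (median -0.51). The fatty acid list shares genes with the capillary list, Cd36, Fabp4 and Gpihbp1 among them.

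Single junction genes differed while the list did not, with medians of -0.02 in the cKO pair and 0.04 in the cHet pair. The connexin Gja1 was at 688 and 153 CPM in cKO PD and cKO control (4.49-fold, 3.57 to 5.69) and at 1102 and 170 CPM in cHet PD and cHet control (6.48-fold, 4.96 to 8.63). Cldn5, the main claudin of endothelial tight junctions, was at 75.1 and 435 CPM in the cKO pair (5.79-fold lower in PD, 4.19 to 8.16) and at 148 and 225 CPM in the cHet pair, where 1 cell held 51.4% of the control UMIs. Icam1 was at 912 and 313 CPM in the cKO pair and at 1020 and 364 CPM in the cHet pair. Of metallothionein and glucocorticoid-type stress genes 6 of 11 were lower in each pair and 1, Hmox1, higher, with Mt2 at 83.6 and 596 CPM in cKO PD and cKO control and at 125 and 401 CPM in cHet PD and cHet control. In the other cells Mt2 differed by more, with log2 folds of -3.27 and -3.25. Hif1a, the hypoxia-inducible factor, was at 370 and 89.9 CPM in the cKO pair and at 313 and 66.8 CPM in the cHet pair. Lineage genes of endothelium had medians of -0.05 in the cKO pair and -0.27 in the cHet pair, against 0.03 and 0.10 for all genes. Of 20 such genes 2 were higher and 4 lower in the cKO pair, and 3 higher and 5 lower in the cHet pair. In the other cells their medians were 0.30 and 0.46. Immediate early and heat shock genes, which tissue dissociation also raises, had medians of 0.40 and 0.00. In capillary cells alone their medians were 0.88 in the cKO pair and 0.60 in the cHet pair. There 16 of 27 were higher and 1 lower in cKO, and 14 of 28 and 2 in cHet. All measured genes of capillary cells had medians of 0.13 and 0.18. In arterial cells alone the medians of this list were 0.20 and -0.20, against 0.0007 and 0.21 for all measured genes. Of 20 arterial genes 3 were higher and 4 lower in the cKO pair (median -0.04), and 3 were higher and 8 lower in the cHet pair (median -0.08). The other lists had medians of 0.07 and -0.05 (VEGF and Tie receptors), 0.19 and 0.06 (adhesion), -0.15 and -0.22 (vascular tone), 0.52 and 1.04 (coagulation), 0.27 and 0.48 (glycolysis and hypoxia), 0.57 and 0.40 (cell cycle), -0.12 and 0.14 (venous), 0.12 and 0.05 (integrins), and -0.12 and 0.30 (fatty acid handling) in the cKO and cHet pairs.

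The controls of the 2 genotypes differed in fewer genes: 53 were called higher in cKO control than in cHet control (2.36% of 2248) and 15 lower (0.667%), and of all 5000 measured genes 11.3% were 1.5-fold higher and 6.88% lower. Vegfc, a ligand of VEGF receptors, was at 113 CPM in cKO control and 30.4 CPM in cHet control (3.73-fold, 1.91 to 8.13), and Lrg1 was at 138 CPM and 36.4 CPM. Several of the named differences rested on single cells among the 114 and 57 members: 87.2% of the BC051076 UMIs and 95% of the Krt2 UMIs of cKO control, and 94.4% of the Lyz2 UMIs of cHet control, came from 1 cell each. Pericyte genes were higher in cHet control, with Rgs5 at 1682 CPM in cKO control and 4633 CPM in cHet control, as was the share of members with at least 5 UMIs of fibroblast, pericyte and smooth muscle genes, at 17.5% and 33.3%. Without those cells the log2 folds of Col3a1 and Steap4 were 0.30 and 0.92, against -3.51 and -1.47 with them. Capillary genes had a median of -0.50, with 0 of 18 higher and 6 lower in cKO control, and interferon genes one of -0.17.

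Itga9 was expressed by the members of every library. It was at 92.2 CPM in cKO PD (54 UMIs), 110 CPM in cKO control (66 UMIs), 28.9 CPM in cHet PD (36 UMIs) and 75.9 CPM in cHet control (25 UMIs), and between 5.8 and 6.9 CPM in all other kept cells. Its level was lowest in cHet PD, 3.18-fold higher in cKO PD than in cHet PD (2.05 to 5.00) and 1.45-fold higher in cKO control than in cHet control (0.902 to 2.40). A deletion driven by Lyz2 would not be read in these cells, so the values say nothing on the genotype labels. Of the other integrin subunits, Itgav, Itgb3 and Itga5, which bind fibronectin and vitronectin, were at 159, 41.0 and 108 CPM in cKO PD, 33.3, 6.66 and 33.3 CPM in cKO control, 108, 83.6 and 111 CPM in cHet PD, and 24.3, 15.2 and 27.3 CPM in cHet control. All 3 were higher in both PD libraries than in both controls, but after thinning the log2 fold of Itgav in the cHet pair was -0.17. The integrin list as a whole went both ways. In the cKO pair 3 of 10 measured genes were higher and 3 lower, and in the cHet pair 4 of 9 were higher and 2 lower.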

How the data were processed

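Gingival single cells of 4 libraries were captured on BD Rhapsody microwells with whole-transcriptome amplification, per the labels' protocols, although a label also names 10x Genomics. The deposited files hold UMI counts per gene and barcode, as the authors made them. The submitters' processing notes name STARsolo 2.7.10a, fastp and the mm10 build. Barcodes with at least 200 genes and at most 20% mitochondrial UMIs were kept. No doublet caller was run, and cells with UMIs of excluded types were removed only by the selection thresholds. Library totals ran between 21368197 and 62914870 UMIs, and member sums between 329399 and 1243635 UMIs.

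Within each library the UMIs of all members were added up and scaled to CPM. Levels carry exact Poisson intervals, shares exact binomial intervals and ratios exact conditional binomial intervals, all at 95% and for counting error only. Log2 folds add 10 CPM, and the 16 selection genes were left out of calls. Arterial against capillary cells and members against venous cells were tested on 8 sums with edgeR 4.0.16 (quasi-likelihood, TMM, filterByExpr, library as block, Benjamini-Hochberg over all genes tested) in R 4.3.3. The scripts were tested on simulated data. DESeq2 1.42.0, other thresholds, thinning and left-out libraries were alternatives. Named genes were the 10 largest called changes per pair and direction (12 per class contrast) and the 3 largest per list. For the pairs, a named gene also lay in at least 10% of members of the higher library, at a CPM of at least 0.5 of that in the other cells there. For the class contrasts it had the same direction in all 4 libraries. Genes outside that rule were named after their values were seen, and the members and lists were chosen with earlier results of these data known. Python 3.11.15, numpy 2.4.6, scipy 1.17.1, pandas 2.3.3 and matplotlib 3.10.9 were used.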

Additional observations from a re-analysis of the deposited data

Results flagged for a closer look

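H2-Q6, a class I antigen gene, was called in opposite directions in the 2 genotypes. Its log2 fold was -1.60 in cKO PD against cKO control (27.3 CPM and 103 CPM) and 1.54 in cHet PD against cHet control (133 CPM and 39.5 CPM). Each genotype had 1 library per condition, and the difference between the 2 folds was not tested. H2-Q6 has near-identical neighbours, among them H2-Q4 and H2-Q7, and how reads were divided among them was not tested.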

How the results depend on the processing

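No paired analysis was possible because single libraries stood for the groups, and the library served as the block in both class contrasts. PD barcodes began at 500 UMIs and control barcodes at 1501. With the control minimum in all libraries, 144 genes were called higher and 122 lower in both genotypes, against 142 and 121. The share ratio of members was 5.45 in the cHet pair at a mitochondrial limit of 10%. Between cKO PD and cHet PD it was 0.537 above the control UMI minimum and 0.508 after thinning to 1000 UMIs. The arterial share ratio after thinning was 1.07 in the cHet pair (0.422 to 3.49), on the other side of 1. Between the controls it was 1.63 (0.571 to 5.70). Both counting intervals held 1.

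After thinning, the genes called higher and lower were 116 and 41 in the cKO pair, 199 and 65 in the cHet pair, 53 and 17 in both (of 548 genes that could be called, against 2590), 10 and 63 in cKO PD against cHet PD, and 7 and 2 between the controls. With 50 CPM added they were 149 and 145, 215 and 124, 86 and 76, 35 and 42, and 27 and 8 in the same order. With a minimum of 20 UMIs the counts that moved were 395 and 456 in the cKO pair, 405 lower in the cHet pair, 183 lower in both, 115 higher in cKO PD against cHet PD, and 177 and 80 between the controls. Without each gene's top cell they were 36 higher in cKO PD against cHet PD and 8 lower between the controls. At the 10% mitochondrial limit 30 were higher between the controls. In arterial cells alone 121 were lower in the cHet pair and 22 higher between the controls, and in capillary cells alone 108 were lower in the cKO pair and 55 in both. Leaving out genes 2-fold apart in other cells left 54 and 59 in both. The settings on classes, top cells and other cells were chosen after seeing the data.

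In arterial against capillary cells the counts were 152 higher and 169 lower with no filter on low counts, and 10 and 2 after thinning. With no replicate block edgeR called 0 and 0, with 209 genes at an unadjusted p under 0.05, and DESeq2 with the block called 49 and 27. Leaving out 1 library gave 24 to 81 higher and 24 to 72 lower. In members against venous cells they were 504 and 407 with no filter, 33 and 28 with no replicate block, 42 and 28 after thinning, 156 and 139 in DESeq2, and 131 lower without cells holding stromal or mural UMIs. Leaving out 1 library gave 153 to 227 higher and 122 to 206 lower. Among named genes 7 of 2392 values changed sign. After thinning these were C1s1 (0.76) and Krt2 (-1.78) between the controls, and H2-Q7 (-0.21) and Itgav (-0.17) in the cHet pair. Krt2 was -1.08 without its top cell, and Col3a1 and Steap4 were 0.30 and 0.92 without stromal or mural cells, all between the controls. Of 756 list medians, 33 moved. The causes were not tested.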
